A study of Homo sapiens with 12 samples.

Results

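The genes described here are those of the mitochondrial genome and 6 of its copies in nuclear DNA. The choice was made by position and name, not by measured values, though earlier results of these data were known. It took all 37 genes on the mitochondrial chromosome (13 for proteins, 2 for rRNAs and 22 for tRNAs). It also took the copies MTND1P23, MTND2P28, MTCO1P12, MTCO2P12, MTATP6P1 and MTCO3P12 on chromosome 1. This makes 43 of the 60648 genes in the table. RNA of HCT116, a human colon carcinoma cell line, was sequenced after poly-A selection in 12 libraries, with 3 biological replicates in each of 4 groups. The groups were wild type (MTHFD2-WT, initial), wild type after 2 months of culture (MTHFD2-WT, final), knock-out (MTHFD2-KO, initial) and knock-out after 2 months of culture (MTHFD2-KO, final). The knock-out was made with CRISPR-Cas9 and is 1 isolated clone, so that loss of MTHFD2, a mitochondrial enzyme of folate metabolism, and other properties of that clone cannot be told apart. All groups grew in DMEM with fetal bovine serum and antibiotics.

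Human mitochondrial DNA is a small circle that is transcribed from both strands into long precursors, from which the rRNAs, mRNAs and tRNAs are cut, in most places at the tRNAs between them. Its 13 proteins are core subunits of the respiratory chain complexes I, III and IV and of ATP synthase, and its rRNAs and tRNAs serve the mitochondrial ribosome. Stretches of mitochondrial DNA have also been inserted into the nuclear chromosomes during evolution, and such copies do not make the mitochondrial proteins.

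The 6 copies lie side by side on chromosome 1 in the order of their mitochondrial counterparts. Aligned to them (GRCh38, transcript sequences of GENCODE 29), the copies were 98.17% to 99.15% identical, with 3 mismatches over 352 aligned bases in MTND1P23 and 10 to 20 in each of the others. Together they cover the stretch of mitochondrial DNA from 3911 to 9753, and within it the position on chromosome 1 was 625169 to 625171 higher than on mitochondrial DNA. The longest run without a difference was 266 bases in MTND2P28 and 108 bases in MTCO2P12. The following 70-base stretches, all on the plus strand, were the ones with the most differences in their pair. They therefore show gene and copy where they are least alike. Shown are the copy with the most counts, the copy with the second most, and MTCO3P12, with 30 to 216 counts per library. Capitals mark the bases that differ between gene and copy.
MT-ATP6, chrM:8649-8718: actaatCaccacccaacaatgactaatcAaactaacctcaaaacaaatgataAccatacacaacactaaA
MTATP6P1, chr1:633818-633887: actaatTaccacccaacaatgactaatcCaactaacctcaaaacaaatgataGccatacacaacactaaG
MT-ND2, chrM:4889-4958: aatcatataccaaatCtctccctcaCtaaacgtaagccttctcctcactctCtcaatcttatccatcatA
MTND2P28, chr1:630059-630128: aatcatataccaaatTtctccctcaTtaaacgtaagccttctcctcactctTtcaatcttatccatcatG
MT-CO3, chrM:9479-9548: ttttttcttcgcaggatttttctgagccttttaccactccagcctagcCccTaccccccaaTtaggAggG
MTCO3P12, chr1:634648-634717: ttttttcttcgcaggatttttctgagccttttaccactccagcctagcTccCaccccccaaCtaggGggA

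The tRNA genes on which the genotype comparisons turn, and 1 that had no count, are shown next, each on its coding strand with the anticodon in capitals. MT-TV lies between the 2 rRNA genes and MT-TL1 after the larger of them; MT-TI and MT-TM are the next tRNA genes on the plus strand; MT-TC is on the minus strand.
MT-TV, chrM:1602-1670, plus strand: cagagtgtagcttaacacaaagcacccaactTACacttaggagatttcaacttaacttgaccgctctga
MT-TL1, chrM:3230-3304, plus strand: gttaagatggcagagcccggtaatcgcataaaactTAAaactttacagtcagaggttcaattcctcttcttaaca
MT-TI, chrM:4263-4331, plus strand: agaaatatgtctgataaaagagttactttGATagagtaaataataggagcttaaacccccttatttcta
MT-TM, chrM:4402-4469, plus strand: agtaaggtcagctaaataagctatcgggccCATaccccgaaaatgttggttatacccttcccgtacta
MT-TC, chrM:5761-5826, minus strand: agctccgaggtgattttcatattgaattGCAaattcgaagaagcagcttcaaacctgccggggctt
MT-TS1, chrM:7446-7514, minus strand: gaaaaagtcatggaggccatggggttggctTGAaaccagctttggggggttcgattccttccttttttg
The last of these, MT-TS1, lies inside the stretch copied to chromosome 1. RefSeq (GRCh38.p14) annotates the hairpin of the microRNA MIR12136 in the copied stretch, at chr1:632615-632685 on the minus strand. All 69 bases of MT-TS1 were identical to bases of this 71-base hairpin.
MIR12136 hairpin: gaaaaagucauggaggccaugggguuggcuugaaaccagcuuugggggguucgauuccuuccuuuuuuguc

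Library totals ran from 38597809 to 40017561 counts. Levels are CPM, a gene's counts relative to the size of its library, scaled with TMM factors, which lay between 0.9265 and 1.034, lowest in final wild-type replicate 1. MTHFD2 ranged from 375 to 457 CPM in the initial wild type and from 319 to 379 CPM in the final wild type, against 128 to 146 CPM and 123 to 155 CPM in the knock-out (edgeR log2 fold changes -1.59 and -1.38, adjusted p 3e-08 and 1.09e-07). Markers of the line's epithelial origin were high in all libraries (EPCAM 307 to 514 CPM, KRT8 843 to 1370 CPM, CDH1 107 to 281 CPM). Of the intestinal markers, CDX2 had 10.7 to 16.5 CPM, whereas CDX1, VIL1, CDH17 and LGALS4 stayed at or under 0.476 CPM. Among the markers of other cell types, DCN, LUM and CD3E had no count in any library, and COL1A1 had 36.2 to 77.3 CPM. The summed level of 5 fibroblast markers, nearly all of it COL1A1, was 56.2 to 69.1 and 59.4 to 78.1 CPM in the initial and final wild type and 36.5 to 46.5 and 41.5 to 58 CPM in the knock-out, and its part in the differences between genotypes was not tested. Of the 43 genes, 37 passed the filter on low counts: all 13 protein and both rRNA genes, 16 of the 22 tRNA genes and all 6 copies. In a bulk library, fewer cells that hold an RNA and less of it per cell cannot be told apart.

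The 37 mitochondrial genes took 8.06%, 6.46% and 8.59% of the counts in the initial wild-type libraries and 13.8%, 10.9% and 9.53% in the final ones. In the knock-out they took 8.07%, 8.28% and 8.36% at the initial and 10.4%, 10.1% and 9.07% at the final harvest. Each final library therefore lay above each initial library of its genotype, and final wild-type replicate 1 lay above all others. Protein genes made up most of these counts, at 84.5% ± 1.17 of the mitochondrial counts in the initial wild type, 87.8% ± 0.8 in the final wild type, 88.8% ± 0.515 in the initial knock-out and 90.7% ± 0.377 in the final knock-out (SD, n = 3). The rRNA genes held 15.4% ± 1.17, 12.1% ± 0.795, 11.2% ± 0.51 and 9.27% ± 0.379 in the same order. Every knock-out library lay below every wild-type library of the same harvest. At the initial harvest the wild type ranged from 14.1% to 16.4% and the knock-out from 10.7% to 11.7%, and at the final harvest from 11.3% to 12.9% and from 9.02% to 9.71%. The tRNA genes held under 0.11% of the mitochondrial counts in every library (0.0715% to 0.108%).

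**Figure D1:**
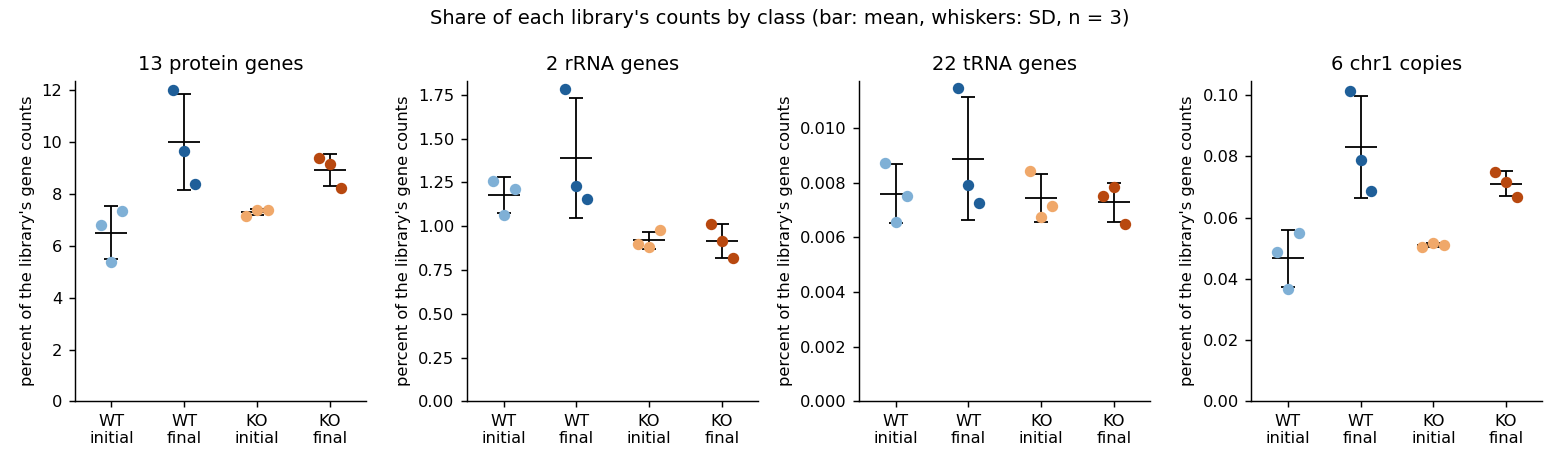
Share of each library's gene counts (percent, y axis, a separate scale for each panel) that fell on the 13 protein genes, 2 rRNA genes, 22 tRNA genes and 6 chromosome 1 copies; points are libraries, bars are group means and whiskers SD (n = 3). The protein share was 5.4% to 7.36% in the initial wild type and at least 8.37% in the final wild type, and final wild-type replicate 1 is the highest point of every panel.

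Relative to gene length, the protein genes spanned a 7.79-fold range. MT-CO3, MT-CO2 and MT-ND4, subunits of complexes IV and I, led with 15130, 14040 and 13140 CPM per kb on average over the 12 libraries. MT-ATP6 (8238), MT-CO1 (8214) and MT-CYB (6789 CPM per kb) followed. The lowest were MT-ND1 (2926), MT-ND5 (2742), MT-ATP8 (2143) and MT-ND6 (1942 CPM per kb); MT-ND6 is the only protein gene on the minus strand. MT-ATP6 and MT-CO1 differed by less than the spread of either between libraries. MT-RNR2, the large rRNA, had 6385 CPM per kb and MT-RNR1, the small rRNA, 1160 CPM per kb, so that both rRNAs lay within or under the range of the protein genes. The highest tRNA gene, MT-TY, had 422 CPM per kb.

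**Figure D2:**
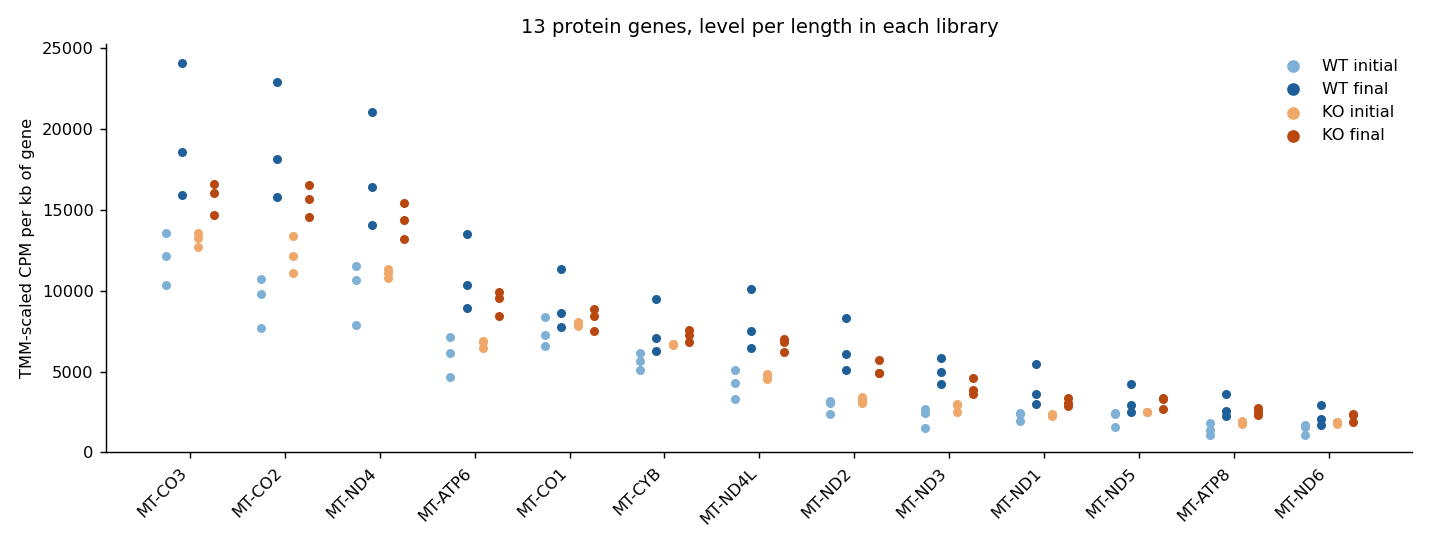
TMM-scaled CPM per kb of gene (y axis, from 0) of the 13 protein genes, ordered by their mean; each point is 1 library, coloured by group. MT-CO3, MT-CO2 and MT-ND4 stand highest in all 4 groups and MT-ND6 is lowest on average, and the final libraries of each genotype lie mostly above its initial ones.

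Over 2 months of culture of the wild type, most mitochondrial mRNAs rose, and the rise was led by MT-ND2 and MT-ND3. Of the 37 genes tested, 14 were called higher and 1 lower (adjusted p under 0.05, edgeR quasi-likelihood test), where 6.47% of all tested genes were called, 3.05% higher and 3.42% lower. The 14 include 3 copies, nearly identical in sequence to their mitochondrial counterparts, so that the 37 are not separate outcomes. Among the 13 protein genes 9 rose, namely 5 of the 7 genes of complex I, 2 of the 3 of complex IV and both of ATP synthase; MT-CYB, the only gene of complex III, did not pass with edgeR. The median log2 fold change of the 13 was 0.84, against 0.01 over all tested genes, and all 13 values were above 0 (0.32 to 1.18), also with library totals in place of TMM factors (0.22 to 1.08). In 11 of the 13 each final library lay above each initial one, which held for 10.8% of all tested genes.

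MT-ND2, a membrane subunit of complex I, had 3202, 2475 and 3324 CPM in the initial wild-type libraries, 8670, 6361 and 5316 CPM in the final ones, 3176, 3590 and 3403 CPM in the initial knock-out and 5984, 5124 and 5138 CPM in the final knock-out libraries. The final libraries lay above the initial ones in both genotypes without overlap, and the 3 final wild-type libraries spread most. The difference in the wild type was 1.18 (SE 0.161, adjusted p = 0.000295), or 2.26-fold. MT-ND3, also of complex I, had 933, 529.9 and 845 CPM in the initial wild-type libraries, 2010, 1715 and 1466 CPM in the final ones, 867, 1007 and 1037 CPM in the initial knock-out and 1599, 1333 and 1251 CPM in the final knock-out libraries. Its lowest library was initial wild-type replicate 2, and its rise in the wild type was 1.17 (SE 0.175, adjusted p = 0.000633). MT-CO2, the subunit of complex IV that takes electrons from cytochrome c, had 6712, 5277 and 7322 CPM in the initial wild-type libraries, 15680, 12420 and 10810 CPM in the final ones, 7599, 9169 and 8305 CPM in the initial knock-out and 11300, 9949 and 10720 CPM in the final knock-out libraries. The initial knock-out stood above the initial wild type here, and the rise in the wild type was 1.01 (SE 0.152, adjusted p = 0.000656).

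The genes of ATP synthase overlap each other on the DNA, and both rose in the wild type. MT-ATP8 had 291, 224 and 372 CPM in the initial wild-type libraries, 742, 528 and 462 CPM in the final ones, 371, 399.9 and 366 CPM in the initial knock-out and 519, 567 and 479.6 CPM in the final knock-out libraries. MT-ATP6, the subunit of the proton channel, had 4198, 3174 and 4852 CPM in the initial wild-type libraries, 9204, 7039 and 6073 CPM in the final ones, 4395, 4711 and 4669 CPM in the initial knock-out and 6772, 6489 and 5743 CPM in the final knock-out libraries. In the wild type the rises were 0.97 ± 0.17 (SE, adjusted p = 0.00234) and 0.87 ± 0.161 (SE, adjusted p = 0.00353) on the log2 scale, with no overlap between harvests. MT-ATP8 counts were 7.22% ± 0.388 of MT-ATP6 counts in the initial wild type, 7.73% ± 0.299 in the final wild type, 8.26% ± 0.359 in the initial knock-out and 8.25% ± 0.549 in the final knock-out (SD, n = 3). Reads in the overlap of these genes could be assigned to neither or to either, since the counting of such reads is not given in the sources used here.

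MT-ND4L and MT-ND4 of complex I overlap in the same way. MT-ND4L had 1267, 986 and 1510 CPM in the initial wild-type libraries, 2997, 2227 and 1911 CPM in the final ones, 1415, 1435 and 1351 CPM in the initial knock-out and 2088, 2024 and 1850 CPM in the final knock-out libraries. MT-ND4 had 14650, 10830 and 15920 CPM in the initial wild-type libraries, 28970, 22610 and 19370 CPM in the final ones, 14870, 15610 and 15290 CPM in the initial knock-out and 21230, 19770 and 18200 CPM in the final knock-out libraries. Final and initial libraries were separate for both genes in both genotypes. The rise in the wild type was 0.92 (SE 0.158, adjusted p = 0.00194) for MT-ND4L and 0.78 (SE 0.162, adjusted p = 0.00772) for MT-ND4.

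MT-ND1, the first protein gene after the rRNAs, had 2249, 1860 and 2319 CPM in the initial wild-type libraries, 5213, 3449 and 2857 CPM in the final ones, 2228, 2283 and 2165 CPM in the initial knock-out and 3240, 2953 and 2747 CPM in the final knock-out libraries. Final wild-type replicate 1 stood well above the other libraries. MT-CO3, a core subunit of complex IV, had 9542, 8106 and 10640 CPM in the initial wild-type libraries, 18890, 14540 and 12490 CPM in the final ones, 9943, 10410 and 10650 CPM in the initial knock-out and 13030, 12570 and 11510 CPM in the final knock-out libraries. Initial wild type and initial knock-out overlapped, and the final wild type was the highest group on average. In the wild type, MT-ND1 rose by 0.84 (SE 0.168, adjusted p = 0.006) and MT-CO3 by 0.70 (SE 0.148, adjusted p = 0.00854) on the log2 scale.

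The 4 protein genes that did not pass with edgeR in the wild type were MT-CO1 (0.32 ± 0.144), MT-CYB (0.43 ± 0.139), MT-ND5 (0.59 ± 0.182) and MT-ND6 (0.62 ± 0.182, log2 ± SE), with adjusted p from 0.0519 to 0.224. DESeq2 called 12 of the 13, all but MT-CO1, and so did edgeR without the filter on low counts or without final wild-type replicate 3. The shares of all genes called under such alternative settings are not given here. MT-ND6, which encodes a complex I subunit from the minus strand, had 836, 561 and 900.3 CPM in the initial wild-type libraries, 1542, 1099 and 900.1 CPM in the final ones, 938, 983 and 1001 CPM in the initial knock-out and 1256, 1225 and 993 CPM in the final knock-out libraries. Its final wild-type replicate 3 overlapped the initial range. The unequal sizes changed the makeup of the mitochondrial mRNA: MT-ND2 counts were 26.3% ± 2.25 of MT-CO1 counts in the initial wild type and 47.3% ± 2.52 in the final wild type, and 27.6% ± 1.46 and 42.6% ± 4.48 in the initial and final knock-out (SD, n = 3). The initial range in the wild type was 24.3% to 28.7% and the final range 44.6% to 49.6%, and in the knock-out 26.3% to 29.2% and 37.5% to 45.9%. Without final wild-type replicate 1 the median of the 13 protein genes was 0.60 in place of 0.84 and the same 9 passed. A fit of the wild-type libraries alone called 6 of the 13, without MT-ND1, MT-CO3 and MT-ND4, and 10 of the 37 genes in place of 15.

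In the knock-out the same comparison called 2 of 37 genes higher and none lower, against 1.48% of all tested genes and 0.837% called higher. They were MT-ND2 (0.68, SE 0.16, adjusted p = 0.0455) and its copy MTND2P28 (0.75, SE 0.157, adjusted p = 0.0243). All 13 protein genes had values above 0, from 0.06 (MT-CO1) to 0.68, with a median of 0.37 against 0.00 over all tested genes, also with library totals in place of TMM factors (0.04 to 0.66). The final libraries lay above the initial ones in 11 of the 13, where 11.9% of all tested genes did so. Of the 13, 8 had an unadjusted p under 0.05, but the share of all tested genes under that p is not given here. Both calls were lost without initial knock-out replicate 1, 2 or 3 or final knock-out replicate 1 (0 genes called) and without final knock-out replicate 2 (MT-TR alone, lower). MT-ND2 was also lost without initial wild-type replicate 3, final wild-type replicate 2 or final knock-out replicate 3, which left 1 gene. DESeq2 called 4 genes: MT-ND2, MTND2P28 and MT-ND4L higher and MT-TR lower. The share of all genes that it called is not given here.

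The interaction term, a test of the difference between the 2 changes over time, called none of the 37 genes with edgeR, against 1.28% of all tested genes (0.809% higher, 0.476% lower). At an unadjusted p under 0.05 there were 4 protein genes, 1 tRNA gene and 1 copy. The share of all tested genes under that p is not given here, so this count is not read as a result about the members. DESeq2 called 1, MT-CO2. All 13 protein genes had negative values (-0.66 for MT-CO2 to -0.26 for MT-CO1, median -0.42), and without final wild-type replicate 1 these ran from -0.52 to -0.02. Without the filter on low counts edgeR called 5 genes, all lower: MT-ND2, MT-CO2, MT-ATP8, MT-ND3 and MTND2P28. The shares of all genes called under these other settings are not given here, so the calls are not read as particular to the members.

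**Figure D3:**
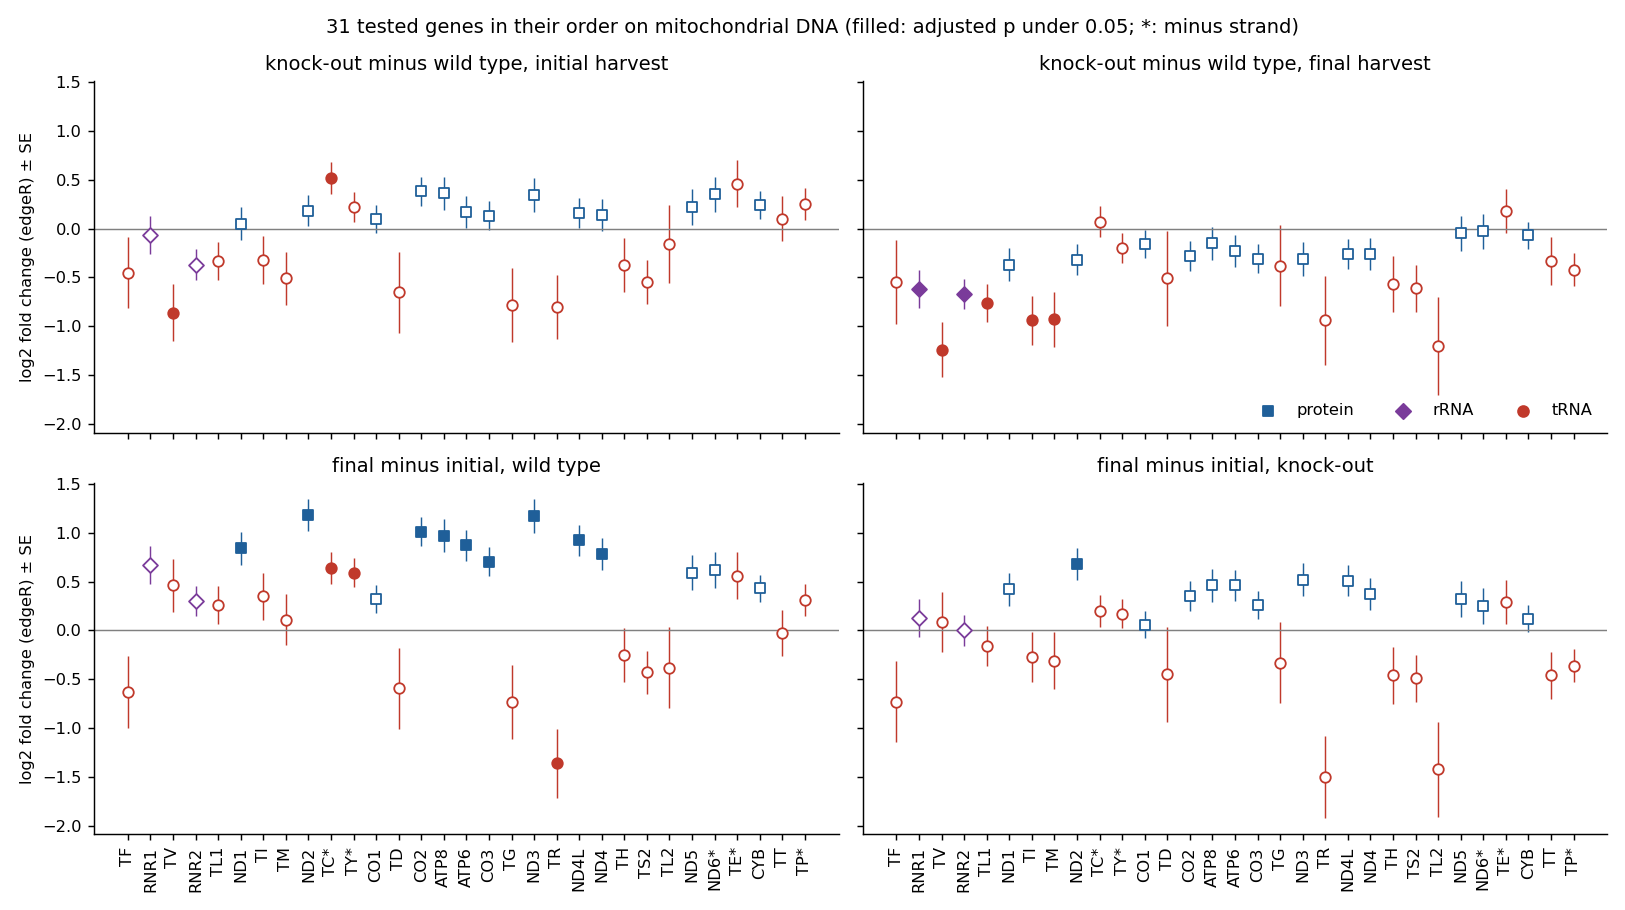
Log2 fold change from edgeR (y axis) of the 31 tested mitochondrial genes in their order on mitochondrial DNA (x axis), for knock-out minus wild type (upper panels) and final minus initial (lower panels); symbols mark class, whiskers are SE and filled symbols have an adjusted p under 0.05. Protein genes lie above 0 in both lower panels, from 0.32 to 1.18 in the wild type, and in the upper right panel the filled symbols are the 2 rRNA genes and 4 tRNA genes near them.

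Between genotypes, the genes called were rRNAs and tRNAs, nearly all lower in knock-out cells, and no mRNA passed with edgeR after the filter on low counts. At the final harvest 6 of the 37 genes were called lower and none higher: MT-RNR1, MT-RNR2, MT-TV, MT-TL1, MT-TI and MT-TM. Of all tested genes 18.5% were called, 8.38% higher and 10.2% lower. At the initial harvest MT-TV was lower and MT-TC higher, against 19.9% of all tested genes (8.55% higher, 11.3% lower). On average over both harvests 7 were lower and none higher, against 30.1% of all tested genes (16.1% lower). With both directions counted, these 2, 6 and 7 of 37 genes did not exceed the shares of all tested genes called (19.9%, 18.5% and 30.1%). With lower calls alone, the 6 at the final harvest and the 7 on average lay above the shares of 10.2% and 16.1%. MT-TV at the initial harvest lay under the 11.3%. Whether the excess of lower calls is more than such a small set gives was not tested, so the comparisons are described gene by gene.

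The calls of mRNAs between genotypes depended on the settings. For the other settings, and for an unadjusted p under 0.05, the numbers of all genes are not set beside the counts of mRNAs. Those counts are therefore not read as particular to the mRNAs. Without the filter on low counts edgeR called 4 higher in initial knock-out libraries (MT-CO2, MT-ATP8, MT-ND3 and MT-ND6) and 5 lower in final ones (MT-ND1, MT-ND2, MT-CO2, MT-CO3 and MT-ND3). With the filter, at the initial harvest all 13 protein genes had values above 0 in the knock-out (0.05 for MT-ND1 to 0.38 for MT-CO2, median 0.18), none was called with edgeR, 2 had an unadjusted p under 0.05 and DESeq2 called MT-CO2. Without initial wild-type replicate 2 the values of 11 were above 0. MT-CO2 was called without final wild-type replicate 1 and MT-ATP8 without initial wild-type replicate 3. In 4 of the 13 each knock-out library lay above each wild-type library, where 17.1% of all tested genes did so (18.4% lay below, 35.5% in all). At the final harvest all 13 had values below 0 (-0.37 for MT-ND1 to -0.03 for MT-ND6, median -0.26), none was called with edgeR or DESeq2, 1 had an unadjusted p under 0.05 and the groups overlapped in all 13, where 33.1% of all tested genes were separate (17.2% lower). That direction was not stable: 2 of the 13 were above 0 with library totals in place of TMM factors or without final knock-out replicate 3, and 5 without final wild-type replicate 1, where the median was -0.06, and MT-ND1 was called lower without final wild-type replicate 3. On average over both harvests none was called with edgeR or DESeq2 and none had an unadjusted p under 0.05 (-0.16 to 0.16).

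MT-RNR2 had 11110, 9553 and 10970 CPM in the initial wild-type libraries, 16990, 11320 and 10640 CPM in the final ones, 7912, 7975 and 8592 CPM in the initial knock-out and 9035, 8034 and 7345 CPM in the final knock-out libraries. Every knock-out library lay below every wild-type library at both harvests. The log2 difference was -0.37 (SE 0.157, adjusted p = 0.114) in the initial libraries, which did not pass, -0.67 (SE 0.157, adjusted p = 0.00592) in the final ones, and -0.52 (SE 0.111, adjusted p = 0.00186) on average. Relative to MT-CO1, the mRNA that changed least over time, MT-RNR2 counts were 92.8% ± 7.35 and 90.4% ± 6.18 in the initial and final wild type and 66.5% ± 2.21 and 63.9% ± 5.22 in the knock-out (SD, n = 3), with no overlap between genotypes (84.9% to 99.6% against 58.8% to 69.3%). MT-RNR1 had 1077, 868 and 952 CPM in the initial wild-type libraries, 2236, 1259 and 1124 CPM in the final ones, 874, 854 and 1027 CPM in the initial knock-out and 1135, 1005 and 867 CPM in the final knock-out libraries. The genotypes overlapped at both harvests, with final wild-type replicate 1 far above the rest. Its log2 difference was -0.07 (SE 0.195, adjusted p = 0.841) in the initial and -0.62 (SE 0.195, adjusted p = 0.0358) in the final libraries. Without final wild-type replicate 1 the final difference was -0.25 for MT-RNR1, which then did not pass, and -0.43 for MT-RNR2, which did. The final call of MT-RNR1 was also lost without initial wild-type replicate 3, final knock-out replicate 2 or final knock-out replicate 3, with DESeq2 and with library totals in place of TMM factors.

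The 2 rRNAs did not keep a fixed proportion. MT-RNR1 counts were 9.16% ± 0.508 of MT-RNR2 counts in the initial wild type (8.69% to 9.69%), 11.6% ± 1.37 in the final wild type (10.6% to 13.2%), 11.2% ± 0.646 in the initial knock-out (10.7% to 12%) and 12.3% ± 0.425 in the final knock-out (11.8% to 12.6%; SD, n = 3). The initial wild type lay below the other 3 groups without overlap. Over time neither rRNA passed in either genotype, and MT-RNR1 was nearest in the wild type (0.67, SE 0.196, adjusted p = 0.0517). Settings that called MT-RNR1 higher there included scaling computed without the members and a block for the replicate number. So did leaving out initial wild-type replicate 1, final wild-type replicate 2 or final wild-type replicate 3. Without final wild-type replicate 1 the values of the 2 rRNAs were 0.05 and 0.30, and neither passed.

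MT-TV, the tRNA for valine that lies between the rRNA genes, had 3.79, 2.74 and 3.08 CPM in the initial wild-type libraries, 6.87, 3.41 and 3 CPM in the final ones, 2.07, 1.43 and 1.79 CPM in the initial knock-out and 2.52, 1.63 and 1.46 CPM in the final knock-out libraries. Counts on a tRNA gene do not tell the cut tRNA apart from longer RNA that holds it. How reads across neighbouring genes were counted is not given in the sources used here. For MT-TV, no knock-out library reached the lowest wild-type library. The log2 difference was -0.86 (SE 0.29, adjusted p = 0.0469) in the initial and -1.24 (SE 0.283, adjusted p = 0.00509) in the final libraries, the lowest value among the tRNA genes at each. The counts of MT-TV were 0.0303% ± 0.0033 and 0.0329% ± 0.00656 of those of MT-RNR2 in the initial and final wild type and 0.0216% ± 0.00418 and 0.0227% ± 0.00449 in the knock-out (SD, n = 3), so that MT-TV was lower in the knock-out also relative to its neighbour. MT-TL1, the tRNA for leucine after MT-RNR2, had 13.4, 12.4 and 12.7 CPM in the initial wild-type libraries, 22.1, 12.4 and 11.7 CPM in the final ones, 12.2, 9.22 and 9.14 CPM in the initial knock-out and 10.1, 9.56 and 7.66 CPM in the final knock-out libraries. Wild type and knock-out were separate at each harvest, with initial knock-out replicate 1 close to the wild type. At the final harvest its difference was -0.76 (SE 0.197, adjusted p = 0.0125).

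MT-TI, the tRNA for isoleucine, had 4.1, 2.03 and 3.03 CPM in the initial wild-type libraries, 5.32, 3.52 and 2.9 CPM in the final ones, 2.6, 2.08 and 2.65 CPM in the initial knock-out and 2.39, 1.81 and 1.88 CPM in the final knock-out libraries. The genotypes overlapped at the initial but not at the final harvest (-0.94, SE 0.249, adjusted p = 0.0134). MT-TM, the tRNA for methionine, had 1.59, 1.53 and 1.38 CPM in the initial wild-type libraries, 2.2, 1.69 and 0.983 CPM in the final ones, 1.29, 0.802 and 1.07 CPM in the initial knock-out and 0.88, 1.07 and 0.603 CPM in the final knock-out libraries. At the final harvest wild-type replicate 3 lay within the range of the knock-out (-0.93, SE 0.279, adjusted p = 0.028). These are low levels, of 24 to 81 counts per library for MT-TM. Without final wild-type replicate 1 the number of members called at the final harvest was 3 (MT-RNR2 and MT-TV lower, MT-TC higher), and the differences of MT-TL1, MT-TI and MT-TM were -0.40, -0.66 and -0.65. Without final knock-out replicate 3 the number was also 3 (MT-RNR2, MT-TV and MT-TI). MT-TI was also lost without final knock-out replicate 2, and MT-TM without final wild-type replicate 2 or final knock-out replicate 1.

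**Figure D4:**
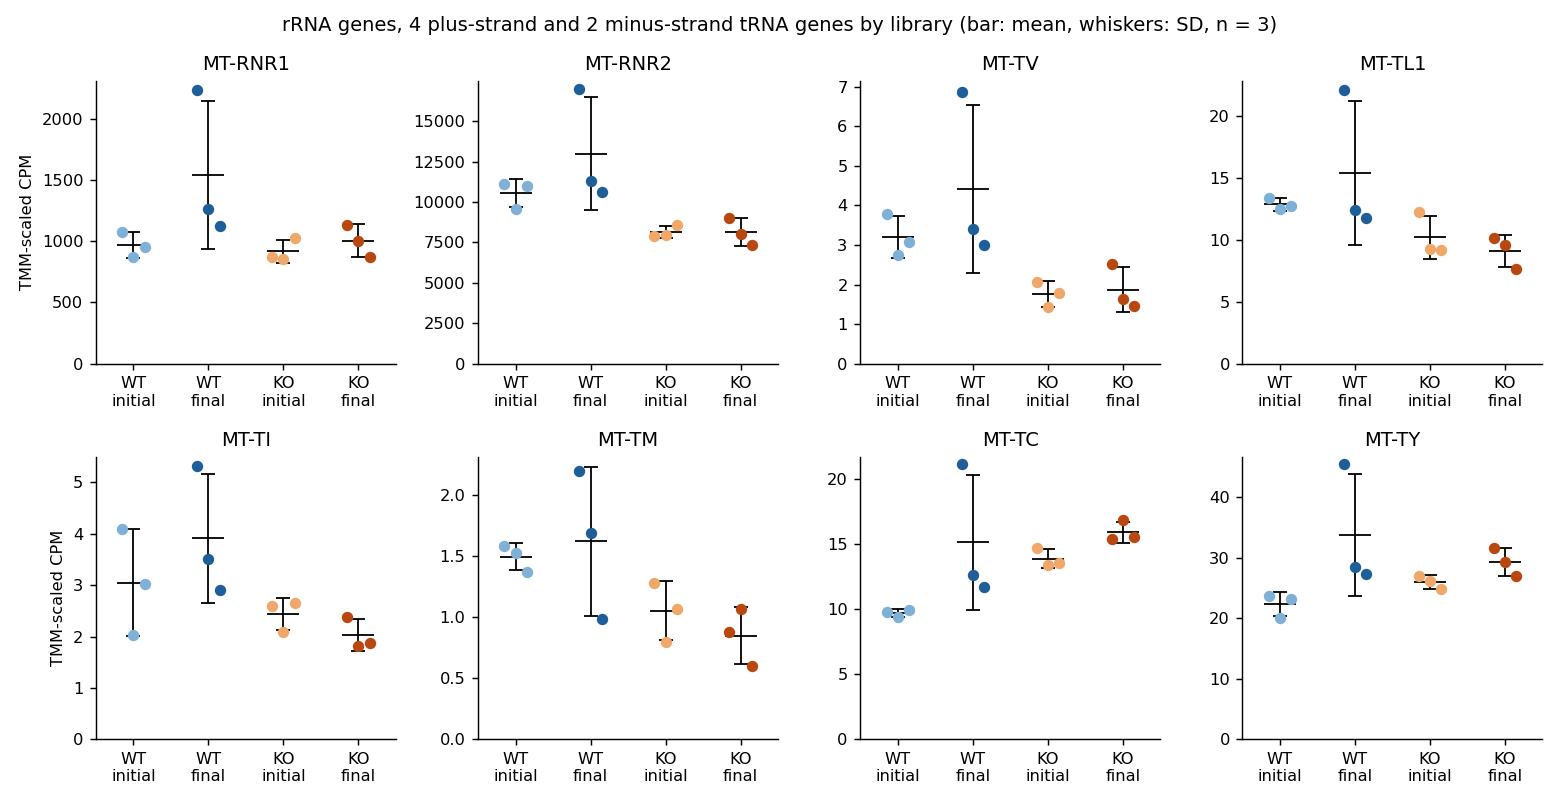
TMM-scaled CPM (y axis, from 0) of the 2 rRNA genes, 4 tRNA genes of the plus strand (MT-TV, MT-TL1, MT-TI, MT-TM) and 2 of the minus strand (MT-TC, MT-TY) by group; points are libraries, bars means and whiskers SD (n = 3). MT-RNR2 and MT-TV are lower in every knock-out library than in any wild-type library, and final wild-type replicate 1 is the highest point of each panel.

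The tRNA genes are given by strand. Of the 12 tested tRNA genes on the plus strand, 12 had values below 0 in the knock-out at the final harvest (-1.24 to -0.33) and 11 at the initial harvest (-0.86 to 0.10); MT-TT was the exception. Of the 4 on the minus strand (MT-TC, MT-TY, MT-TE, MT-TP), 4 had values above 0 at the initial harvest (0.22 to 0.52) and 2 at the final harvest (-0.42 to 0.18). On average over both harvests 6 plus-strand genes passed, all lower, and no minus-strand gene. MT-TV (-1.05, SE 0.203, adjusted p = 0.000837) was lowest. MT-TL1 (-0.55), MT-TI (-0.63) and MT-TM (-0.72) followed, with MT-TR (-0.87) for arginine and MT-TS2 (-0.58) for serine. Over all tested genes the median was 0.00 at the initial harvest and on average. Strandedness of the libraries and of the counting is not given in the sources used here. Which strand the counted RNA came from is therefore not known, and that the strands differ was not tested. With library totals in place of TMM factors or with scaling computed without the members, the counts of values above 0 among the 16 tRNA genes were the same in the 3 comparisons of genotype, and with library totals MT-TC was called higher on average. MT-TR was lost on average without final wild-type replicate 1, initial knock-out replicate 2 or 3, or final knock-out replicate 1 or 3 (-0.83 to -0.69).

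MT-TC, the minus-strand tRNA for cysteine, had 9.82, 9.37 and 9.94 CPM in the initial wild-type libraries, 21.1, 12.6 and 11.7 CPM in the final ones, 14.7, 13.4 and 13.6 CPM in the initial knock-out and 15.4, 16.8 and 15.5 CPM in the final knock-out libraries. At the initial harvest the knock-out lay above the wild type without overlap (0.52, SE 0.165, adjusted p = 0.0371), and at the final harvest the groups overlapped. MT-TY, the gene of the tRNA for tyrosine next to it, had the highest mean CPM of the tRNA genes. It had 23.7, 20.1 and 23.2 CPM in the initial wild-type libraries, 45.4, 28.5 and 27.3 CPM in the final ones, 27, 26.1 and 24.9 CPM in the initial knock-out and 31.6, 29.3 and 27 CPM in the final knock-out libraries. Both rose over time in the wild type, by 0.64 (SE 0.165, adjusted p = 0.0282) and 0.59 (SE 0.15, adjusted p = 0.0252) on the log2 scale. Both of these were lost without initial wild-type replicate 2, initial wild-type replicate 3 or final wild-type replicate 1 (0.32 and 0.31 without the last). At the initial harvest the call of MT-TC was lost when any 1 of the 6 initial libraries was left out. That of MT-TV was lost for each of these except initial wild-type replicate 2, and without final knock-out replicate 2. Of the 37 genes 0 were then called without initial wild-type replicate 1, initial knock-out replicate 2 or initial knock-out replicate 3, 1 without initial wild-type replicate 3 or final knock-out replicate 2, and 4 without final wild-type replicate 1.

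MT-TR, which lies between MT-ND3 and MT-ND4L, was the only 1 of the 37 genes called lower over time in the wild type. It had 1.76, 1.33 and 1.18 CPM in the initial wild-type libraries, 0.624, 0.547 and 0.491 CPM in the final ones, 1.26, 0.526 and 0.663 CPM in the initial knock-out and 0.201, 0.536 and 0.126 CPM in the final knock-out libraries. Its final wild-type libraries lay below all initial ones (-1.36, SE 0.352, adjusted p = 0.0291), while the genes on both sides of it rose. The fitted final level was 39% of the initial level for wild-type cells and 35.3% for knock-out cells, where MT-TR did not pass with edgeR (adjusted p = 0.101) and the harvests overlapped. DESeq2 called it lower in the knock-out too, and its interaction was -0.14 (SE 0.551, adjusted p = 0.948). These levels correspond to 5 to 72 counts per library, and the call was lost without initial wild-type replicate 1 (-1.18), final wild-type replicate 2 (-1.34) or final wild-type replicate 3 (-1.28). MT-TH, the tRNA for histidine, had 9.62, 3.95 and 5.73 CPM in the initial wild-type libraries, 4.86, 6.41 and 4.94 CPM in the final ones, 6.08, 3.71 and 5.21 CPM in the initial knock-out and 3.55, 4.9 and 2.49 CPM in the final knock-out libraries. It was not called in any comparison, and its highest library was initial wild-type replicate 1. MT-TS2, next to it, had 4.79, 2.87 and 3.28 CPM in the initial wild-type libraries, 2.93, 2.71 and 2.48 CPM in the final ones, 3.33, 1.65 and 2.48 CPM in the initial knock-out and 1.69, 2.04 and 1.58 CPM in the final knock-out libraries, with the final knock-out below the final wild type and overlap at the initial harvest.

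Levels of RNAs without a poly-A tail are given as a rough guide to the poly-A selection, since rRNAs and tRNAs carry short tails or none of the usual kind. Their own expression can also differ between groups, and their levels do not tell this apart from the selection. The summed level of 19 such RNAs, mostly histone mRNAs and small non-coding RNAs, was 7.74 to 9.98 CPM in the initial wild type, 13.2 to 15.5 CPM in the final wild type, 10.5 to 13.1 CPM in the initial knock-out and 10.1 to 10.6 CPM in the final knock-out. Of the 5 that passed the filter, 2 were called lower in final knock-out libraries (H1-2 -0.66, H4C8 -1.99, edgeR log2 fold changes), where 18.5% of all tested genes were called. RN7SL1 was called higher in initial ones (1.55), where 19.9% were called. On average over both harvests 1 was higher and 2 were lower, where 30.1% of all tested genes were called. Over time 1 was higher in the wild type (6.47% of all tested genes called), and the interaction called 1 lower (1.28%). The part of the selection in the differences of rRNAs and tRNAs was not tested.

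The tRNA genes without counts all lay inside the stretch copied to chromosome 1. Of the 11 tRNA genes inside it, 5 (MT-TQ, MT-TA, MT-TN, MT-TS1 and MT-TK) had no count in any of the 12 libraries, which allows a level of up to 0.075 to 0.0777 CPM in a library, and MT-TW had 10 counts in all (0 to 3 per library). The other 5 inside, MT-TI, MT-TM, MT-TC, MT-TY and MT-TD, had counts in every library. Of the 11 outside the stretch none was at 0 in any library, and the lowest count was 3. Within the stretch MT-TC had 379 to 778 counts per library and MT-TA, also on the minus strand, had none. As shown above for MT-TS1, chromosome 1 holds the same letters as the mitochondrial tRNA gene in at least 1 of these cases. How reads that match several places were counted is not given in the sources used here, and the part of the copies in the missing counts was not tested.

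The 6 copies together held 0.0366% to 0.0548% of the counts in the initial wild type, 0.0687% to 0.101% in the final wild type, 0.0503% to 0.0516% in the initial knock-out and 0.0667% to 0.075% in the final knock-out. Relative to the 6 genes they copy, this was 1.24% ± 0.0777, 1.43% ± 0.0249, 1.22% ± 0.0223 and 1.41% ± 0.0156 of the counts (SD, n = 3). MTATP6P1 had 8.04% of the counts of MT-ATP6 on average (7.64% to 8.32% over the 12 libraries), MTND2P28 3.31% of those of MT-ND2 (3.12% to 3.51%) and MTCO1P12 0.195% of those of MT-CO1 (0.163% to 0.238%). MTND1P23, MTCO3P12 and MTCO2P12 had 0.0234%, 0.0139% and 0.0108%, and varied 2.01-fold, 9.54-fold and 2.16-fold between libraries. The order did not follow identity, since MTND1P23 was the most similar to its counterpart (99.15%), and MTATP6P1 (98.53%) and MTCO2P12 (98.24%) had nearly the same.

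MTATP6P1 had 340.2, 257 and 399 CPM in the initial wild-type libraries, 750.5, 566 and 497 CPM in the final ones, 357, 376 and 366 CPM in the initial knock-out and 526, 496 and 478 CPM in the final knock-out libraries. MTND2P28 had 105, 77.3 and 112 CPM in the initial wild-type libraries, 296, 212 and 179.9 CPM in the final ones, 106, 114 and 108 CPM in the initial knock-out and 203, 179.8 and 167 CPM in the final knock-out libraries. As in their mitochondrial counterparts, final wild-type replicate 1 was highest and initial wild-type replicate 2 lowest. Over time in the wild type MTATP6P1 rose by 0.86 (SE 0.149, adjusted p = 0.00203), where MT-ATP6 rose by 0.87, and MTND2P28 rose by 1.23 (SE 0.158, adjusted p = 0.000182), where MT-ND2 rose by 1.18. In the knock-out the values were 0.45 against 0.46, and 0.75 against 0.68. MTCO2P12 had 0.781, 0.618 and 0.475 CPM in the initial wild-type libraries, 1.55, 1.75 and 1.24 CPM in the final ones, 0.757, 0.927 and 0.765 CPM in the initial knock-out and 1.56, 1.22 and 0.98 CPM in the final knock-out libraries, and rose by 1.27 in the wild type (SE 0.235, adjusted p = 0.00354), where MT-CO2 rose by 1.01. No copy passed between genotypes at either harvest with edgeR on the filtered genes of all 12 libraries or with DESeq2, and none had an unadjusted p under 0.05 there. Without the filter on low counts edgeR called MTND2P28 and MTATP6P1 lower at the final harvest. Leaving out 1 library, it called MTCO3P12 lower at the initial harvest (without initial wild-type replicate 2) and MTND2P28 lower at the final harvest (without final wild-type replicate 3).

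MTCO1P12 had 19.3, 22.9 and 25.4 CPM in the initial wild-type libraries, 41.7, 23.1 and 19.5 CPM in the final ones, 26.1, 23.7 and 25.5 CPM in the initial knock-out and 22.5, 24.9 and 22.6 CPM in the final knock-out libraries. It did not pass in any comparison, nor did MT-CO1. MTND1P23, with 14 to 42 counts per library, had 0.464, 0.593 and 0.701 CPM in the initial wild-type libraries, 1.14, 0.86 and 0.647 CPM in the final ones, 0.353, 0.476 and 0.536 CPM in the initial knock-out and 0.755, 0.536 and 0.703 CPM in the final knock-out libraries. Its value over time in the wild type was 0.59 (SE 0.261, adjusted p = 0.22). MTCO3P12 had 5.28, 0.741 and 1.08 CPM in the initial wild-type libraries, 2.12, 1.3 and 1.34 CPM in the final ones, 1.29, 1.1 and 1.07 CPM in the initial knock-out and 0.755, 1.35 and 1.28 CPM in the final knock-out libraries. Initial wild-type replicate 1 stood apart with 216 counts, against 30 to 78 in the other libraries, and its ratio to MT-CO3 was 0.0553%, against 0.00579% to 0.0129% elsewhere. MT-CO3 itself was not high in that library.

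**Figure D5:**
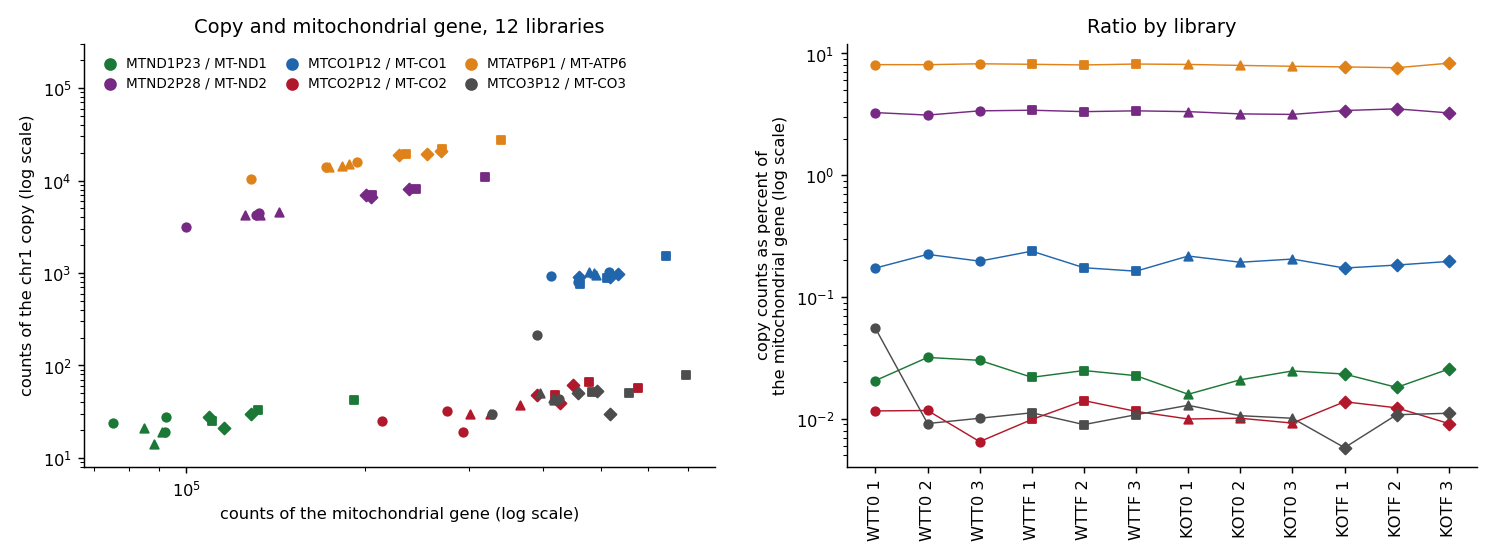
Left, counts of each chromosome 1 copy (y axis) against counts of the mitochondrial gene it copies (x axis) in the 12 libraries, both on log scales; right, counts of the copy as percent of those of the gene in each library (log scale), with groups marked by symbol (WTT0 and WTTF are initial and final wild type, KOT0 and KOTF initial and final knock-out, and colours stand for the copies). The lines for MTATP6P1 (7.64% to 8.32%) and MTND2P28 (3.12% to 3.51%) are nearly flat, and the point of MTCO3P12 in initial wild-type replicate 1 (0.0553%) stands above the rest of its line.

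Nuclear genes that copy, transcribe, process and translate mitochondrial DNA changed little. Of the 69 such genes that were counted, 67 were tested. Over time FASTKD2, which serves the large mitochondrial rRNA, rose in the wild type (0.36 ± 0.0915 on the log2 scale, SE, adjusted p = 0.0254), and none was called in the knock-out. Between genotypes, 6 were higher and 1 lower in initial knock-out cells, 1 higher and 1 lower at the final harvest, and 7 higher and 2 lower on average, with a median of 0.07 on average against 0.00 over all tested genes. These 7, 2 and 9 of 67 genes compare with 19.9%, 18.5% and 30.1% of all tested genes called in the same comparisons, and the 1 over time in the wild type with 6.47%.

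The 9 called on average were the following. ELAC2, which cuts the 3′ ends of tRNAs, was higher in the knock-out (0.25 ± 0.0643, adjusted p = 0.00707), as was TRMT10C, a subunit of the enzyme for the 5′ ends (0.24 ± 0.0725, adjusted p = 0.0191). The other subunits of that enzyme were lower: PRORP, its nuclease, by -0.45 ± 0.115 (adjusted p = 0.00707), and HSD17B10 by -0.24 ± 0.0839 (adjusted p = 0.0372). MRM3, which methylates MT-RNR2 (0.25, adjusted p = 0.0218), PDE12, which removes poly-A tails from mitochondrial RNA (0.24, adjusted p = 0.0149), NSUN2, an RNA methyltransferase (0.15, adjusted p = 0.0282), RNASEH1, which degrades RNA paired with DNA (0.24, adjusted p = 0.0159), and the coactivator PPARGC1B (0.38, adjusted p = 0.00143) were higher. These values are edgeR log2 fold changes, with SE after ±.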

How the data were processed

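The 12 libraries were analysed from 1 table of read counts per gene deposited by the authors. STAR, featureCounts, Subread and the build hg38 are named in the submitters' processing notes; versions, the annotation release, strandedness and the handling of reads that match several places are not given in the sources used here. The deposited counts were used as they are, after 5 broken lines of 1 gene were left out. Gene positions came from the deposited counts table. GENCODE 29 gave the gene types and the names of the members, and 37318 IDs had the same version and the same position in it.

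Genes with low counts were removed with filterByExpr, which left 18289, and edgeR 4.0.16 (R 4.3.3) fitted the robust quasi-likelihood model to all 12 libraries with TMM factors. Adjusted p-values are Benjamini-Hochberg values over all tested genes in each of 6 comparisons, called under 0.05, and SE is the log2 fold change divided by the root of its F. Alternatives included DESeq2 1.42.0, other scaling, no filter and leaving out each library. The fitting was tested on simulated data. Named genes were the rRNA genes, the copies, the protein genes called in any comparison or highest or lowest per length, the 4 tRNA genes with the highest mean level and the other tRNA genes called. The members and lists were chosen with earlier results of these data known. Intervals for counts of 0 cover counting error only.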

Additional observations from a re-analysis of the deposited data

How the results depend on the processing

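No call changed sign between settings, but values that did not pass did: MTCO3P12 over time in the wild type was at -0.58, and without initial wild-type replicate 1 the lowest value of the 6 copies was 0.22. The direction of the mRNAs at the final harvest also changed for some genes, as given above. Tested against a 1.5-fold change, the number of the 37 genes called was 0 for genotype (initial, final and average), 2 over time in the wild type and 0 over time in the knock-out. Without the filter on low counts it was 9 and 14 between genotypes at the initial and final harvest, with 4 and 5 mRNAs among them, 11 over time in the knock-out and 5 for the interaction. DESeq2 called 4 for time within knock-out cells and 1 for the interaction, and a fit of only the groups compared called 10 for time within knock-out cells and 10, in place of 15, within wild-type cells. Leaving out 1 library at a time gave 0 to 4 genes (initial harvest), 3 to 8 (final harvest), 13 to 18 (time, wild type), 0 to 3 (time, knock-out), 6 to 9 (average) and 0 (interaction). The causes of these shifts were not tested. The numbers of all genes called under each setting are not set beside these counts, so the shifts are not read as particular to the members. With counts outside the mitochondrial genes as denominator, the mitochondrial share was 8.98% in the initial and 10.9% in the final knock-out. Per kb of gene length, MTND1P23 was at 0.0709%, 0.0595%, 0.0526% and 0.0574% of MT-ND1 in the initial and final wild type and the initial and final knock-out, and MTCO3P12 at 0.0148%, 0.016% and 0.0132% of MT-CO3 in the final wild type, initial knock-out and final knock-out.

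Replicate numbers did not pair the libraries: 6 of 18 same-numbered pairs had a correlation over 0.1 (-0.358 to 0.238), and 1 library correlated best with its own number. With a replicate block 2, 6, 17, 2, 9 and 0 genes were called (initial harvest, final harvest, time in wild type, time in knock-out, average, interaction). Counts were low for some tRNA genes and copies, such as 14 to 42 per library for MTND1P23 and 5 to 72 for MT-TR.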

Other observations

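The table holds 411 other nuclear genes named as copies of mitochondrial genes, which together took 0.00638% to 0.0132% of a library; 192 had a count and 13 were tested. MTRNR2L1, a nuclear gene derived from MT-RNR2 (GRCh38, chr17:22523415-22524663), had 79.7 ± 5.35 CPM in the initial wild type, 93.7 ± 26.4 in the final wild type, 60.1 ± 3.97 in the initial knock-out and 56 ± 6.5 in the final knock-out (SD, n = 3). Knock-out minus wild type in the final libraries was -0.74 (edgeR log2 fold change, adjusted p = 0.00173), where MT-RNR2 differed by -0.67. MTCO2P22, a copy of MT-CO2 (chr5:100052859-100053539), rose over time in the wild type by 1.04 (edgeR, adjusted p = 0.000714), from 1.9 ± 0.159 to 3.9 ± 0.425 CPM (SD, n = 3), where MT-CO2 rose by 1.01. MTND4P20 on chromosome 10 was higher in the knock-out at the final harvest (2.79, adjusted p = 0.000781, edgeR), at 0.564 ± 0.0978 against 0.0794 ± 0.0462 CPM (SD, n = 3), while MT-ND4 differed by -0.26 and did not pass. These levels of MTND4P20 are low. Of the 13 tested, 1 was called higher and 1 lower at the final harvest, where 18.5% of all tested genes were called. Over time in the wild type 1 was called higher, where 6.47% of all tested genes were called. The part of reads shared between these copies and the mitochondrial genes was not tested.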
